A study of Mus musculus with 4 samples.

Results

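Knockout-only regions inside genes are stretches of open chromatin, centred in a protein-coding gene, that were found with Dnmt3a knocked out (KO) and not in wild type (WT). They were chosen by the peak calls themselves: a peak in each of the KO lists and none in a WT list. ATAC-seq, in which a transposase inserts adapters into accessible DNA, was run on FACS-sorted endothelial cells of mouse lung, with 2 KO and 2 WT libraries. The strain, age and sex of the mice, the Cre driver or other means of deletion, and whether the replicates of a genotype came from different mice are not stated in the labels, so p-values measure only the spread between these libraries. Each library was represented by its peak positions (mm10), without scores or read counts. The 4 lists were merged wherever peaks overlapped by at least 1 bp, which gave 113063 regions on chromosomes 1 to 19, X and Y. Of these, 1266 met that condition (KO-only regions), and 774 of the 1266 had their centre inside one of 21887 RefSeq protein-coding gene spans. The 774 regions lay in 662 genes. They were 1.18% of the 65661 regions inside genes. The mirror-image class, present in WT alone (WT-only regions), had 1762 members inside genes, or 2.68%. The order of these counts depended on list length: when narrow peaks were dropped until all lists were as long as the shortest, KO-only regions numbered 1196 and WT-only regions 1056. It also turned without KO replicate 1 (4058 and 2876), but there a KO-only region needed a peak in 1 list and a WT-only region still in 2. Both counts follow from the way the regions were chosen and are given as descriptions.

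DNMT3A is a de novo DNA methyltransferase that adds methyl groups to cytosines in CG dinucleotides that carry none. Methylation is common within the bodies of transcribed genes and at inactive enhancers, many of which lie in introns, while promoters dense in CG are mostly free of it. Promoters of germline genes are a known exception, since CG methylation keeps many of them silent in somatic cells. The data were compared for the place of the KO-only regions along their genes, the length of those genes and the distance to open regions that all libraries shared.

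Of the 774 regions, 27 (3.49%) touched an annotated promoter window, here the 250 bases before and 50 bases after a RefSeq start. The shares were 2.78% (49 of 1762) for WT-only regions and 2.03% (62 of 3058) for regions called in 1 KO and 1 WT list (mixed regions). The windows touched by KO-only regions were 29, belonging to 27 genes, and 4 upstream sequences are printed as examples of starts with a peak in the KO lists alone: those of Stk31 and Zglp1, with many CG, and those of Hspb3 and Klhl5, with a number near the median of all windows. They were chosen after their values were seen, and no count over germline genes was made. The 250 bases before each start are given 5′ to 3′ on the strand of the gene, from RefSeq GRCm38.p6 (mm10), with every CG in capitals. Stk31 encodes a Tudor domain kinase of germ cells (chr6:49395289-49395538, plus strand), Zglp1 a GATA-like zinc finger protein of germ cells (chr9:21067094-21067343, minus strand), Hspb3 a small heat shock protein (chr13:113663677-113663926, minus strand), and Klhl5 a kelch-like protein, with this start lying inside the gene (chr5:65130981-65131230, plus strand).
Stk31: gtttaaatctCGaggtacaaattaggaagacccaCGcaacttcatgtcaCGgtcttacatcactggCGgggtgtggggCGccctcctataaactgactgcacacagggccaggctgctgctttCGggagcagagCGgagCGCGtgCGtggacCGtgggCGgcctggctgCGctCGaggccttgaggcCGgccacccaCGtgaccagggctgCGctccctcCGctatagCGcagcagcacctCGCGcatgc
Zglp1: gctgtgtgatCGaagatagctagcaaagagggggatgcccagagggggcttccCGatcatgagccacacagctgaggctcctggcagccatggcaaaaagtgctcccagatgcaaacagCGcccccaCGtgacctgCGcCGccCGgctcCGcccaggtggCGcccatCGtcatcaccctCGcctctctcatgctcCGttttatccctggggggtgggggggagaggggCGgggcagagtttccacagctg
Hspb3: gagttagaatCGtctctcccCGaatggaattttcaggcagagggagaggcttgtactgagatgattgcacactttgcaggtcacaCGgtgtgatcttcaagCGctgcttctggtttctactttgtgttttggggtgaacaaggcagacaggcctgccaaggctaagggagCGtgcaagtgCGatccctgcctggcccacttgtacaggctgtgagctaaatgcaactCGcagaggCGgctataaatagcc
Klhl5: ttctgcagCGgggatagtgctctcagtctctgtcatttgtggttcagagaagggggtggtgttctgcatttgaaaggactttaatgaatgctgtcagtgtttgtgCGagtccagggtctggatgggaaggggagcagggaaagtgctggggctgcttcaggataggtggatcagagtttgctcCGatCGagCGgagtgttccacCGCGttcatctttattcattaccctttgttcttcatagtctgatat

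The Stk31 sequence held 21 CG dinucleotides and the Zglp1 sequence 13, against 8 for Hspb3 and 7 for Klhl5. The median over all windows was 6 in these 250 bases. At Stk31 the KO-only region (chromosome 6, 49395317 to 49395787) was 319 bp wide in KO replicate 1 and 471 bp in KO replicate 2, and it covered 222 of the 250 bases. A second KO-only region of 200 and 260 bp began at 49397510, near the start of the same gene. No region of all 4 lists was centred in the Stk31 span, and the nearest was 27238 bp from the first region. At Zglp1 the peaks were 258 and 282 bp wide and covered 74 of the 250 bases. At Hspb3 they were 322 and 454 bp wide and covered 171 bases, and at Klhl5 they were 610 and 311 bp wide and covered all 250. The nearest WT peak lay 20946 bp from the Stk31 region, 5951 bp from the Zglp1 region, 5827 bp from the Hspb3 region and 1971 bp from the Klhl5 region.

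Starts touched by KO-only regions had a typical number of CG, with few dense ones. The 29 windows held a median of 7 CG dinucleotides in 300 bases (range 2 to 29), and the median over all 32851 windows was 7. Counting CG on either strand gives the same number, since the dinucleotide reads alike on both. At least 15 were present in 4 of the 29 windows (13.8%), which were 2 overlapping windows of Stk31, that of Zglp1 and that of Six3os1, an antisense transcript of the homeobox gene Six3. The share over all windows was 34.6%. WT-only regions inside genes touched 57 windows with a median of 17 CG, and 34 of them (59.6%) held at least 15. Mixed regions touched 73 windows, of which 22 (30.1%) did. These shares are counts over few windows, and some windows share a gene. The promoter table holds none of chromosome 18 and lacked some other genes.

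The lists differed in length before any comparison of genotypes. On the chromosomes used, KO replicate 1 had 85091 peaks (median width 466 bp), KO replicate 2 had 100879 (406 bp), WT replicate 1 had 101442 (430 bp) and WT replicate 2 had 97627 (442 bp). No list held a peak under 200 bp, read depth was unknown, and a region missing from a list need not be closed. The cell type was checked with markers: in each library, peaks lay no more than 1000 bp from an end of all 20 pan-endothelial genes. Of 18 leukocyte markers 5 or 6 did, of 15 lung epithelial markers 9 to 11, and of 16 fibroblast and mural markers 11 to 13, with no library apart. KO-only regions lay in 0 of the 18 leukocyte, 0 of the 15 epithelial and 0 of the 16 fibroblast and mural marker genes, where 3.02% of all protein-coding genes held one. WT-only regions lay in 2 of the leukocyte genes (Pax5 and Mrc1), 1 of the epithelial genes (Cdh1) and 0 of the last list. Lists this short say little at that share.

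The KO-only regions inside genes were narrower than regions of all 4 lists, as were the other classes of regions called in only some lists. The median merged width was 340 bp for KO-only, 302 bp for WT-only, 293 to 311.5 bp for mixed regions and 601 bp for regions of all 4 lists. The KO-only peaks had a median width of 265 bp in KO replicate 1 (range 200 to 1059) and 294 bp in KO replicate 2 (range 200 to 1129), against 518 and 493 bp for regions of all 4 lists inside genes. Within its own list a peak stood at a median width percentile of 14.5 in KO replicate 1 and 21.8 in KO replicate 2. The peak was the wider one in KO replicate 2 for 465 regions and in KO replicate 1 for 283, and 26 were equal. Peaks at the floor of 200 bp numbered 139 in KO replicate 1 and 72 in KO replicate 2, with 22 regions at the floor in both. Only 28 regions reached the median width of the list in both libraries. In 10 regions a list held more than 1 peak, and their widths were summed.

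**Figure D1:**
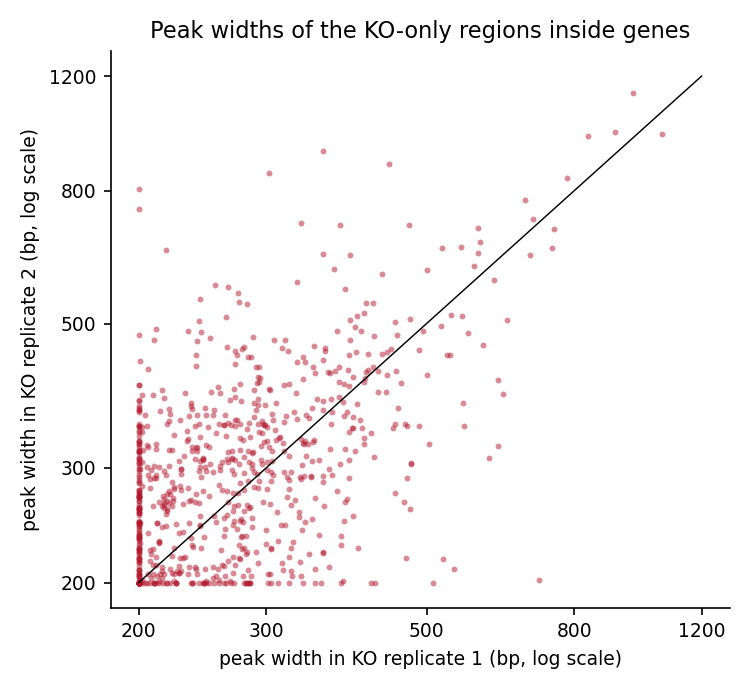
Peak width in base pairs in KO replicate 1 (x axis, log scale) and KO replicate 2 (y axis, log scale) for the 774 KO-only regions inside genes, 1 point a region, with the line of equal width. Most points lie between 200 and 500 bp, and 465 of them lie above the line.

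The widest of them lay toward the far end of Palld, the gene of the actin-binding protein palladin (61549520 to 61550672 on chromosome 8). It measured 964 bp in KO replicate 1 and 1129 bp in KO replicate 2. Lrrk2, a large kinase gene, followed with 1059 and 978 bp, and its region lay 19482 bp from any region of all 4 lists, though a WT peak lay 963 bp away. In Stat5b, a cytokine-activated transcription factor, the region of 782 and 838 bp lay 98.1% of the way along the gene and 10513 bp from a shared region. The regions of Alg14, an enzyme of protein glycosylation (750 and 699 bp), and Fignl2 (837 and 972 bp) lay 4004 and 441 bp from one. Those of Pdxdc1, Pde9a, a cyclic GMP phosphodiesterase, and Lhx6, a LIM homeobox gene, lay 635, 360 and 493 bp from one. Among these 8 widest regions, 5 lay within 5000 bp of a shared region and 3 did not.

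KO-only regions were few in the first 10% of genes, a result that did not hold with KO replicate 2 left out (values given after the plot of place along the gene). The reference gave the strand for 605 of the 774 regions, and their median place was 53.4% of the way from the gene start to its far end (interval 49.1 to 57.9). WT-only regions lay at 46.6% (44.1 to 50.3, n = 1352), and the 4 kinds of mixed regions at 44.6% to 52.3%. Regions of all 4 lists lay at 37.4%, since many sit at promoters. Only 38 of the 605 (6.28%, interval 4.61 to 8.50) lay in the first 10% of the gene, against 155 of 1352 WT-only regions (11.5%, interval 9.87 to 13.3), 8.86% to 13.96% of the mixed regions and 26.1% of the regions of all 4 lists. At the other end, 153 (25.3%, interval 22.0 to 28.9) lay in the last 20% of the gene, against 17.5% of WT-only regions (15.6 to 19.6). Mixed regions that included KO replicate 1 had 15.0% and 16.6%, and those that included KO replicate 2 had 20.6% and 20.7%. The KO libraries differed here too, with 15.7% for regions of KO replicate 1 alone and 22.7% for KO replicate 2 alone. Each WT replicate alone had 19.5%. The 95% intervals are from binomial counting (Wilson for shares), and they cover counting error only, not the spread between libraries.

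**Figure D2:**
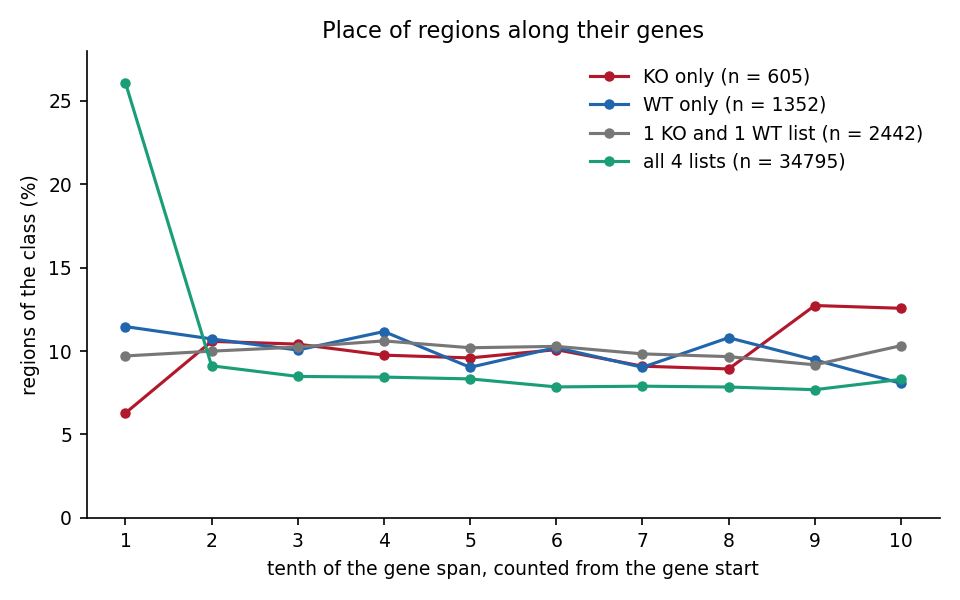
Share of the regions of each class (y axis, percent) in each 10% of the gene span counted from the gene start (x axis), for genes whose strand was known. KO-only regions start at 6.28% in the first 10% and reach 12.7% and 12.6% in the last 2 steps, while regions of all 4 lists start at 26.1%.

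The place along the gene changed when a peak in KO replicate 2 was not required. Without KO replicate 2, regions called in KO replicate 1 and neither WT list had 15.4% in the first 10% and a median place of 45.3%. The difference from WT-only regions turned from 5.18 percentage points lower to 2.78 higher. Without KO replicate 1 the share was 8.83%. The set without KO replicate 2 takes in the regions called in KO replicate 1 alone, of which 21.3% lay in the first 10%. These values are therefore not independent of each other. For regions of KO replicate 2, WT replicate 1 and WT replicate 2 alone the shares were 9.24%, 11.4% and 11.2%. The KO libraries stood on either side of the WT libraries.

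Few KO-only regions sat at an end of their gene, as in the other classes of regions called in only some lists. Within 1000 bp of either end lay 42 regions, 5.43% (interval 4.04 to 7.25), against 6.19% of WT-only regions (5.15 to 7.41) and 20.8% of regions of all 4 lists. The share was 2.89% to 7.99% in mixed regions and 4.91% to 9.21% in regions of 1 list alone. Where the strand was known, 10 KO-only regions lay at the start and 19 at the far end. WT-only regions had 59 at the start and 26 at the far end. The KO libraries differed: regions called in KO replicate 2 alone had 48 and 68, and those in KO replicate 1 alone 69 and 15. The 10 at a start were in Slc37a1, Hspb3, Stk31, Laptm5, Olfr750, 4930447C04Rik, Gm128, Zglp1, Stat5a and Fam210b. Laptm5 encodes a lysosomal membrane protein of blood cells, and its region of 306 and 319 bp lay 6211 bp from a region of all 4 lists. The region of Stat5a, a cytokine-activated transcription factor, had 236 and 234 bp and lay 411 bp from one.

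The regions lay in long genes, as other regions within genes did. The genes holding them had a median length of 107152 bp over regions (interval 96527 to 115376), while the median of all 21887 protein-coding genes was 17169 bp. A long gene offers more room for a region, and the part of this in the lengths was not tested. WT-only regions lay in genes of 128875 bp (117833 to 136623), mixed regions in genes of 103377 to 129811 bp, and regions of all 4 lists in genes of 85628 bp. Per megabase of gene span, KO-only regions numbered 1.14 in genes under 10 kb, 0.881 in genes of 10 to 50 kb, 0.773 at 50 to 100 kb, 0.890 at 100 to 200 kb and 0.822 at 200 to 500 kb. In the 227 genes of 500 kb or more the value was 0.213, from 41 regions. WT-only regions numbered 1.64 to 2.12 per megabase in genes under 500 kb and 1.11 in the longest genes. In the same step, from 200 to 500 kb to the longest genes, regions of all 4 lists went from 34.9 to 14.3 per megabase. The difference in these steps was not tested.

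**Figure D3:**
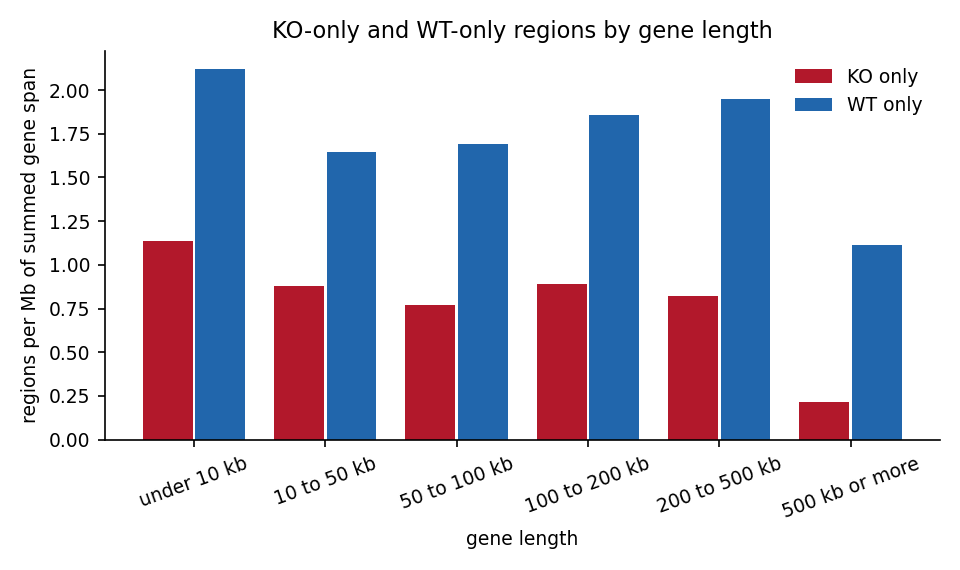
KO-only and WT-only regions per megabase of summed gene span (y axis) in 6 classes of gene length (x axis). The KO-only bars stay between 0.773 and 1.14 up to 500 kb and stand at 0.213 for genes of 500 kb or more.

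The 5 longest genes holding a KO-only region were Cntnap2, Nrxn3, Nrg1, Rbms3 and Ntm, from 2241333 to 968521 bp. Cntnap2 and Nrxn3 encode neuronal adhesion proteins, Nrg1 a ligand of ERBB receptors, Rbms3 an RNA-binding protein and Ntm the adhesion protein neurotrimin. Each held 1 such region, and in Nrxn3, Nrg1, Rbms3 and Ntm WT-only regions numbered 3, 5, 1 and 2. The 5 shortest were Hspb3 (781 bp), Olfr750, Fam240a, Dnd1, a germ cell RNA-binding protein gene, and Isyna1, which encodes inositol phosphate synthase (2810 bp). In the first 4 of these no region of all 4 lists was centred. The widest KO-only region in a gene without one was that of Tnfaip8l2, a regulator of immune cells, with 589 and 641 bp, 2274 bp from the nearest.

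KO-only regions lay close to open chromatin that all libraries shared. The median distance from a KO-only region to the nearest region of all 4 lists was 3685 bp (interval 3268 to 4343). It was 5678.5 bp for WT-only regions (5205 to 6134), 4727 to 4966.5 bp for the 4 kinds of mixed regions and 4915 bp from one region of all 4 lists to the next. Of the 774 regions, 123 (15.9%) lay within 500 bp of a shared region, 185 (23.9%) within 1000 bp and 451 (58.3%) within 5000 bp. The WT-only shares were 7.38%, 14.3% and 46.3%. Within 1000 bp, mixed regions that included KO replicate 1 had 27.9% and 29.4%, above the KO-only share, and those that included KO replicate 2 had 18.0% each. The interval of the KO-only median overlapped those of 3 kinds of mixed regions and lay below that of KO replicate 2 with WT replicate 1 (4484 to 5083).

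**Figure D4:**
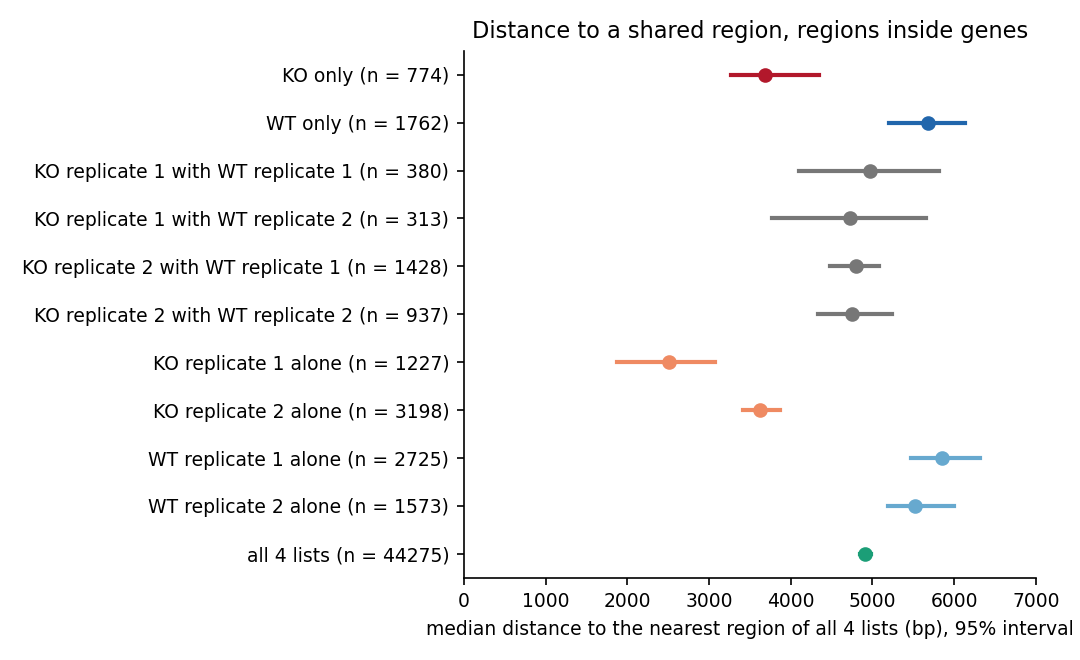
Median distance in base pairs from a region inside a gene to the nearest region of all 4 lists (x axis), by the lists that called it (rows), with bars for the 95% interval of the median from binomial counting. KO-only regions stand at 3685 bp and WT-only regions at 5678.5 bp, and regions of a single KO list lie below those of a single WT list.

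The same measure was tested in regions that the choice of KO-only regions did not use, those called in 1 library alone. Their median distance was 2507 bp in KO replicate 1, 3622 bp in KO replicate 2, 5852 bp in WT replicate 1 and 5522 bp in WT replicate 2. The KO and WT libraries did not overlap, and the KO minus WT difference of means was -2622.5 bp, with 3064.5 ± 788 bp in KO and 5687 ± 233 bp in WT (SD, n = 2 each, two-sided exact permutation p = 0.33, adjusted p = 0.444 over 4 values). With 2 against 2 libraries, 0.33 is the smallest p possible. Leaving out each library kept the direction, with differences of -1656 to -2312.5 bp. Counting only regions with no peak of another list within 500 bp, the difference was -888.5 bp, and the libraries overlapped (exact permutation p = 1). The length of the genes (110870 bp in KO and 121970 bp in WT, exact permutation p = 0.33) and the share inside genes (59.2% and 55.0%, exact permutation p = 0.33) did not overlap between genotypes either. The gene length difference went from -11099 to -4779 bp with no peak of another list within 500 bp, and to -5899 bp without KO replicate 2 (exact permutation p = 0.667 for each). The share lying at a gene end, within 1000 bp, did overlap (7.06% and 5.57%, exact permutation p = 1).

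The median distance to a shared region was shorter for KO-only than for WT-only regions in each class of gene length. In genes under 50 kb the median was 2935 bp for KO-only regions (interval 2351 to 3566) and 4641 bp for WT-only regions (4005 to 5133). In genes of 50 to 200 kb the values were 4004 and 5193 bp, with overlapping intervals, and in genes of 200 kb or more 4581 and 7423 bp. Mixed regions stood at 4097, 4560 and 5846 bp in these classes, and their intervals overlapped those of KO-only regions in each. Regions of all 4 lists stood at 4845, 4784 and 5217 bp. Split at 340 bp, the median width of the KO-only regions, the distance was 3514.5 bp for the narrower and 3795 bp for the wider KO-only regions. For WT-only regions it was 5331.5 and 6094 bp. KO-only regions outside genes, of which there were 492, lay 3390.5 bp from a shared region (2749 to 4377), and WT-only regions outside genes 7778.5 bp (7201 to 8486).

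Genes holding a KO-only region had a median of 7 regions of all 4 lists, or 8.05 per 100 kb, against 5 and 5.18 for genes holding a WT-only region and 4.90 to 6.37 per 100 kb for those holding mixed regions. Genes with regions of 1 library alone held 5.24 per 100 kb for KO replicate 1 and 6.99 for KO replicate 2. For WT replicate 1 and WT replicate 2 the values were 4.89 and 5.10. Genes with regions of all 4 lists held 7.51. Only 28 of the 662 genes (4.23%) held no region of all 4 lists, against 127 of 1398 (9.08%). The part of this density in the distance was not tested. For 693 of the 774 regions (89.5%) the nearest shared region had its centre in the same gene, and 534 (69.0%) lay between 2 shared regions of that gene, against 63.7% of WT-only regions. The shared region nearest to a KO-only region had a median width of 581 bp.

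The nearest and the farthest regions show the range. The region of Ptprj, a receptor tyrosine phosphatase gene, lay 22 bp from a region of all 4 lists, that of Sash1 30 bp, that of Baz2b, a bromodomain gene, 51 bp, that of the iron regulator Hfe 56 bp and that of Tpcn1, a lysosomal cation channel gene, 66 bp. At the other extreme were Nrxn3 (178313 bp), Klhl32 (129507 bp), the complement gene C7 (96336 bp), the ion exchanger gene Slc24a2 (79386 bp) and Vwa3b (62791 bp). In C7 no region of all 4 lists was centred, and the peaks were 200 and 219 bp wide. A WT peak lay within 500 bp of 149 of the 774 regions. The closest lay 5 bp away, at Igf2bp2, 10 bp at Tnrc6c and 29 bp at Eif4g3. Just outside the rule, KO and WT peaks overlapped by 6 bp at Ddhd1, 57 bp at Mlh3 and 78 bp at Ptprb. By the other edge of the rule, the centres nearest to a gene end lay 39 bp inside Adad1 and 46 bp inside Stk31, and 37 bp outside Got1l1 and 43 bp outside Rps6ka2.

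No shared region beside them passed the test for a width difference between the genotypes. limma on quantile-normalised log2 width, fitted over all 75396 regions of all 4 lists, called 0 of them (0%) after Benjamini-Hochberg adjustment (smallest adjusted p = 0.538). At an unadjusted p under 0.05 it gave 2147 (2.85%) wider and 2399 (3.18%) narrower in KO. Of the 753 regions nearest to a KO-only region, 42 (5.58%) were wider and 35 (4.65%) narrower at that level. Their median log2 difference was 0.016 (interval 0.0067 to 0.027), against 0.0093 for all regions and -0.0014 for the 1693 regions nearest to a WT-only region. In the 185 that lay within 1000 bp of a KO-only region, 113 (61.1%) were wider in KO, against 39928 (53.0%) of all 75396, with a median of 0.030, and in the 252 within 1000 bp of a WT-only region 123 (48.8%) were, with a median of -0.0026. The median beside KO-only regions, less that of all regions, was 0.0067, and it turned to -0.0050 without KO replicate 2, to -0.00075 without WT replicate 2 and to -0.0030 with only the wider regions.

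Most genes held 1 KO-only region. There were 574 such genes, 69 with 2, 15 with 3, 3 with 4 and 1 with 5. The gene with 5 was Maml3, a Notch coactivator gene of 418000 bp on chromosome 3, which held 44 regions of all 4 lists and 1 WT-only region. Its 5 regions began at 51741856, 51790020, 51952979, 52033921 and 52046102. The widths were 391, 562, 581, 218 and 270 bp in KO replicate 1 and 401, 378, 613, 255 and 245 bp in KO replicate 2. They stretched over 304523 bp of the gene and lay 138 to 3245 bp from a shared region.

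Meis2, a homeobox transcription factor gene of 206274 bp on chromosome 2, held 4 KO-only regions, 16 regions of all 4 lists and 0 WT-only regions. The widest, at 116009163 to 116009663, had 501 and 417 bp and lay 28.2% of the way along the gene, 9582 bp from a shared region. The other 3 lay at 69.8%, 80.9% and 89.1%, with peaks of 200 to 305 bp. Its relative Meis1 held 3, of 200 to 419 bp, with 15 shared and 0 WT-only regions. Palld held 4, all in the portion from 47.8% to 94.7% of the gene, with 32 shared regions and 1 WT-only region. Cgnl1, which encodes the junction protein paracingulin, held 4 of 200 to 385 bp, with 24 shared regions and 1 WT-only region.

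**Figure D5:**
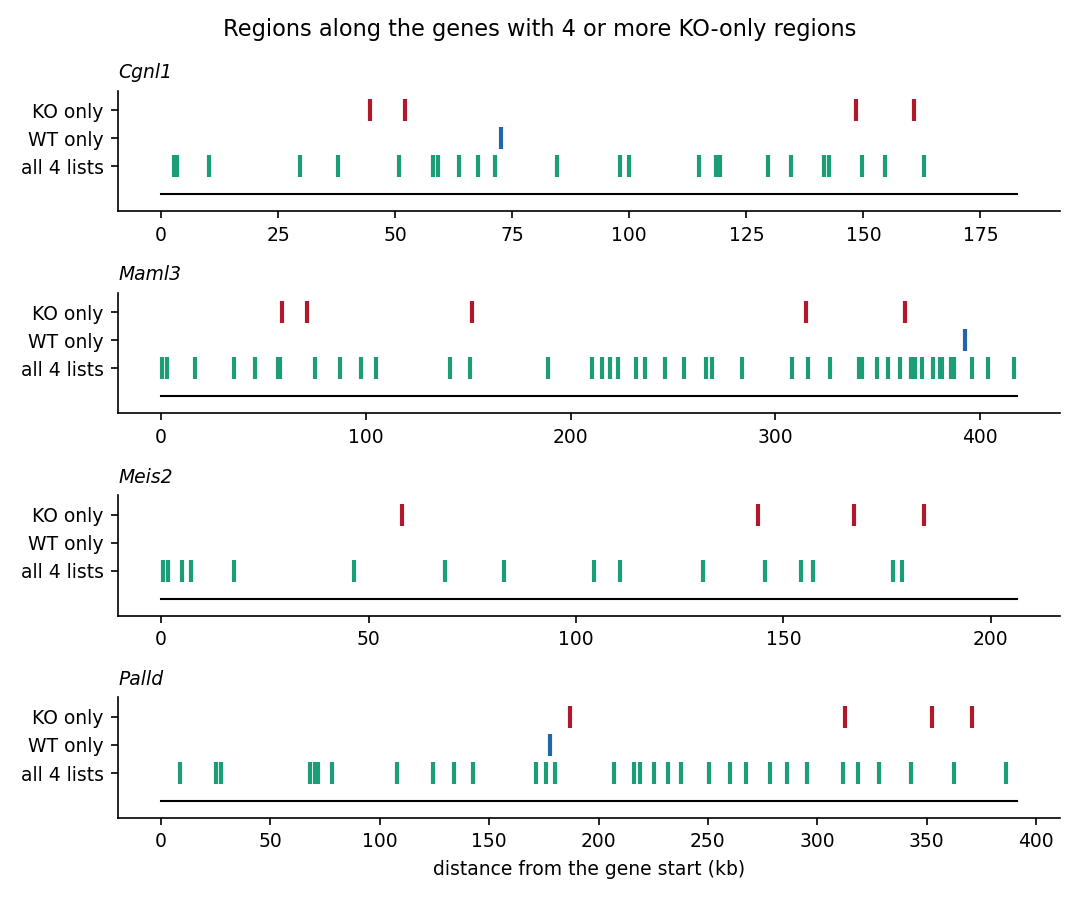
Centres of regions along Cgnl1, Maml3, Meis2 and Palld (x axis, distance from the gene start in kilobases), with 1 row each for KO-only regions, WT-only regions and regions of all 4 lists. The KO-only regions are spread among shared ones, and those of Palld lie between 47.8% and 94.7% of the gene.

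The 15 genes with 3 KO-only regions included transcription factor genes (Foxp1, Mecom and Zfp423), regulators of the small GTPase Rac (Tiam1, Trio and Chn2), the semaphorin and VEGF co-receptor Nrp2, the protein kinase Prkce, the death domain adaptor Cradd, the scaffold Tanc1, the SNARE Vti1a, Klhl5, Pced1b and Gm37013. Of them, Nrp2, Klhl5, Chn2, Meis1, Pced1b and Tiam1 held 0 WT-only regions, and Foxp1 held 3. Each of the 3 regions of Chn2 was at the floor of 200 bp in at least 1 KO list. In Tiam1 all 3 regions lay far from shared ones, at 8174 to 25263 bp, and in Vti1a the 3 lay at 73.8% to 99.7% of the gene, within 2613 bp of one. In Klhl5 a pair of regions, at 65130694 to 65131303 and 65131474 to 65132009 on chromosome 5, lay side by side, the first at the Klhl5 start whose sequence is printed and the second at the start of LOC115490189. WT-only regions were found in 177 of the 662 genes, which is 26.7% of these and 12.7% of the 1398 genes with a WT-only region. Over all protein-coding genes, 6.39% held a WT-only region and 3.02% a KO-only region. The part of gene length in this overlap was not tested.

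Dnmt3a itself held 1 KO-only region (3825601 to 3826164 on chromosome 12). Its peaks were 386 and 564 bp wide, and it lay 24323 bp from the gene start and 2553 bp from a region of all 4 lists. Peak positions do not show a deleted exon, so the locus does not check the genotype. Zbtb38, which encodes a methyl-CpG-binding zinc finger protein, held another (304 and 264 bp). They were 2 of 16 genes of the DNA methylation machinery, in which 0 held a WT-only region.

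Gene lists were read against the share of all protein-coding genes that held a KO-only region, 662 of 21887 (3.02%), and a WT-only region (6.39%). The median length of the list genes was above the 17169 bp of all genes in every list except those of general capillary, leukocyte and epithelial genes, and nothing is called particular to a list. Of 38 endothelial transcription factor genes, 5 held a KO-only region (Foxp1, Mef2a, Meis1, Meis2 and Mecom, 14 regions). A WT-only region lay in 11 of the 38, among them the ETS factor genes Erg, Fli1, Ets1 and Etv6. The median length in this list was 27063.5 bp. Of 22 cell junction genes, 6 held one and 6 a WT-only region, with KO-only regions of 213 and 231 bp and of 207 and 200 bp in Magi1, a scaffold gene, and of 212 and 247 bp in Tjp1, which encodes ZO-1.

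Of 20 VEGF and angiogenesis genes, 3 held a KO-only region and 2 a WT-only region. The region of Flt1, the VEGF receptor 1 gene, had 331 and 357 bp and lay 2065 bp from a shared region, and that of Pgf, a VEGF family ligand gene, had 215 and 395 bp. Nrp2 held 3, of which the widest had 599 and 463 bp and lay 17282 bp from a shared region. Of 10 venous genes, Nrp2 and Vwf, the von Willebrand factor gene (244 and 226 bp), held one and 0 a WT-only region. Of 21 arterial and Notch genes, 3 did (Maml3, Maml2 and the ligand gene Jag1, whose region had 383 and 379 bp) and 3 held a WT-only region. Nrp2 was the 1 of 8 lymphatic genes with KO-only regions, and Rgcc, with peaks of 399 and 452 bp, the 1 of 12 aerocyte genes.

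Of 27 BMP and TGF-beta genes, 3 held a KO-only region and 5 a WT-only region. Ltbp1, which encodes a latent TGF-beta binding protein, had regions of 588 and 701 bp and of 329 and 268 bp side by side at 2.46% and 2.21% of the gene. Smad3, a TGF-beta signal transducer, had one of 360 and 919 bp and another of 280 and 226 bp, and Bmp6, a BMP ligand gene, one of 350 and 200 bp. Of 29 axon guidance genes, 2 held one (Plxnd1, a semaphorin receptor gene with peaks of 500 and 605 bp, and Sema6d) and 13 a WT-only region, with a median length in the list of 147926 bp. Of 19 Wnt genes, 1 held one (Ror1, a WNT5A receptor gene, 384 and 360 bp) and 5 a WT-only region. Of 20 pan-endothelial surface genes, 1 did (Egfl7, 227 and 207 bp) and 4 held a WT-only region, and of 10 general capillary genes 0 and 2 did.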

How the data were processed

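ATAC-seq peak lists of 2 KO and 2 WT libraries were used, grouped by the labels. Tools named, per the submitters' processing notes, were Picard, Bowtie2 and cutadapt, with the mm10 build and no roles. The peak caller, its threshold and any read shift are not given in the sources used here. The authors deposited positions and widths in base pairs, a unit without normalization, with no score or read count, per the file headers. Starts count from 0, so 1 base was added, and widths are 1 bp below those deposited. Peaks on other sequences (92 to 134 a list) were left out.

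Regions were placed in the longest RefSeq span (GRCm38.p6) holding their centre. The promoter table gave the strand of 79.9% of genes. Distances run between nearest edges. Medians have binomial order-statistic intervals and shares Wilson intervals, at 95%, for counting error only. Library values were compared by exact permutation and widths with limma 3.58.1 (R 4.3.3), at an adjusted p under 0.05, and the scripts (Python 3.11.15, scipy 1.17.1) were tested on simulated data. Replicate numbers did not pair the libraries.

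Genes named were Dnmt3a, those with at least 3 KO-only regions, the 8 widest regions by the lower width percentile, the 5 longest, shortest, nearest and farthest, those at a gene start, examples without a shared region and members of the 17 lists, of which 1 is not reported here. Genes at the edges of the rule and with printed sequences were added after seeing the data. The KO-only regions and lists were chosen with earlier results of these data known. Alternatives covered peak overlap, absence, list length, peak width, gene assignment, windows, each library left out and the replicate block.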

Additional observations from a re-analysis of the deposited data

How the results depend on the processing

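Of 143 alternative values for 15 results, 112 stayed within the spread or kept their direction and side of the threshold, 25 moved and 6 changed sign. The number of KO-only regions was 1196 with lists limited to their widest peaks at the shortest length, where WT-only regions numbered 1056, and 362 (WT-only 916) with peaks at or over the median width. With a library left out, so that fewer lists must hold or lack the region, it was 1238 to 4058. It was above the WT-only number (2876) without KO replicate 1, where a KO-only region needed 1 list and a WT-only region still both WT lists. The median distance was 4854 bp with no WT peak within 500 bp, 8745 bp with the wider peaks, 2858 bp with shared regions of at least 1 KO and 1 WT list, and 2897 to 3956.5 bp with a library left out. WT-only regions lay farther throughout, by 3364.5 bp with the wider peaks and 1487 to 1799 bp with a library left out. The share in the first 10% was 7.04% to 15.4% with a library left out, and the median place 45.3% to 52.6%. WT-only less KO-only in the first 10% was 10.8 percentage points with the wider peaks and -2.78 to 4.59 with a library left out, negative without KO replicate 2. The median gene length was 95105 bp with 1 value per gene. The share at a gene end was 12.9% in a window of 2500 bp and 4.47% to 7.67% with a library left out. For regions of 1 library the gene end difference changed from 1.49 to -1.06 percentage points with no other list within 500 bp, and was -0.71 to 2.34 with a library left out, negative without KO replicate 1. The median log2 width beside KO-only regions, less that of all, changed from 0.0067 to -0.0050 without KO replicate 2, -0.00075 without WT replicate 2 and -0.0030 in the wider regions, and reached 0.018 without WT replicate 1. The cause was not tested for any of these. With the replicate block, limma called 0 regions after adjustment and 4394 at an unadjusted p under 0.05, against 4546 without the block. Deviations of log2 width from the mean of the genotype had a correlation of -0.045 between same-numbered libraries. With 2 libraries a genotype, the value between differently numbered ones is fixed at 0.045. Unadjusted calls numbered 2189 to 13881 with a library left out. Read depth is unknown, so narrow peaks near the floor cannot be told from a difference in calling.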
